A study of Arabidopsis with 24 samples.

Results

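The transcripts of 10 genes for light-signaling B-box (BBX) proteins, BBX20 to BBX25 and BBX28 to BBX31, were followed in an RNA-seq series of Arabidopsis thaliana seedlings. These genes were chosen by their locus codes, which were BBX20 (AT4G39070), BBX21 (AT1G75540), BBX22 (AT1G78600), BBX23 (AT4G10240), BBX24 (AT1G06040), BBX25 (AT2G31380), BBX28 (AT4G27310), BBX29 (AT5G54470), BBX30 (AT4G15248) and BBX31 (AT3G21890), and they were 10 of the 32833 genes in the deposited table. Whole seedlings of 4 genotypes were grown for 6 days in white light (WL). They were then left in WL or moved for 6 h to a low ratio of red to far-red light (low R:FR). The ratio was 0.3, and such light signals close neighbouring plants. The genotypes were dvl1-1D, a line in which a T-DNA insertion activates RTFL18 (DVL1), a gene for a small peptide of the DEVIL/ROTUNDIFOLIA family; bsk36, a T-DNA double mutant of BSK3 and BSK6, genes for kinases of brassinosteroid signaling; pif47, a double mutant of the phytochrome-interacting factor genes PIF4 and PIF7; and wild-type Col-0, the background of all the mutants. Each of the 8 combinations of genotype and light had 3 libraries, 24 in all, and the labels do not say whether the 3 came from separate cultures, so the p-values measure only the spread between these libraries, which may be technical. The series set low R:FR against WL in each genotype and each mutant against Col-0 to ask how RTFL18 and BSK3/6 act in the shade response compared with PIF4 and PIF7.

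BBX proteins are zinc-finger regulators of transcription that tune photomorphogenesis, the switch of a seedling to its light-grown form. BBX20, BBX21, BBX22 and BBX23 work with the bZIP factor HY5 to promote that switch, whereas BBX24 and BBX25 hold back HY5 activity, BBX28 and BBX29 bind HY5, and the small proteins BBX30 and BBX31 act as repressors in seedlings. Several of them are marked for degradation by the COP1/SPA ubiquitin ligase, and BBX24 is also known to favour elongation in shade, where low R:FR inactivates phytochrome B and releases the PIF factors. Only transcript levels were measured here.

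The libraries were close to each other in estimated depth, and the labelled genotypes and treatment were visible in them. FPKM do not give read totals, so relative depths were fitted to bring the low values of 398 weakly expressed genes near whole reads. The fitted depths of the 24 libraries lay between 0.81 and 1.23 of their geometric mean. After the fit, 84.4% of these values lay within 0.2 of a whole read. The fit itself aims at whole reads, so this share is no independent check of the depths. RTFL18 stood at 517 to 975 FPKM in the dvl1-1D libraries, against 0 to 12.9 FPKM in all others. In bsk36, BSK3 was at 0 to 0.03 FPKM and BSK6 at 0.30 to 0.75 FPKM, against at least 20.6 and 7.83 FPKM elsewhere, and in pif47, PIF7 was at 0.53 to 1.34 FPKM, against at least 9.83 FPKM elsewhere. PIF4 kept 7.67 to 8.05 FPKM in pif47 under low R:FR, against 22.1 to 26.5 FPKM in Col-0 under low R:FR, so reads of the mutated PIF4 gene were not absent. All 8 low R:FR marker genes listed for the treatment (among them PIL1, HFR1 and ATHB2) were called higher under low R:FR in dvl1-1D, bsk36 and Col-0, and 7 of 8 in pif47. Over all tested genes the shares called higher were 10.7%, 8.09%, 21.0% and 8.25% in that order. These markers were listed with earlier results of these data known, so their counts are a description and no independent check. As a check of the whole-seedling label, the 3 shoot markers summed to 16832 to 23399.9 FPKM and the 7 root markers to 48.1 to 103 FPKM over the libraries. Fewer cells of a type and less RNA per cell cannot be told apart in such bulk samples.

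The members spanned a wide range of transcript levels. BBX24 was the most abundant, with a mean of 148 FPKM over the 24 libraries and a range of 90.6 to 205 FPKM. BBX21 (mean 52.4 FPKM, 40.6 to 70.2 FPKM) and BBX25 (mean 41.1 FPKM, 27.5 to 54.6 FPKM) followed, and their ranges overlapped. BBX28 (mean 27.8 FPKM, 10.1 to 50.5 FPKM) and BBX22 (mean 23.5 FPKM, 17.2 to 31.1 FPKM) came next, with the range of BBX22 inside that of BBX28, and then BBX29 (mean 8.81 FPKM, 2.44 to 17.8 FPKM). BBX30, BBX31 and BBX20 were low, with means of 3.79, 3.61 and 2.76 FPKM and ranges that overlapped. BBX23 was lowest, with a mean of 0.373 FPKM, a maximum of 1.15 FPKM and a listed value of 0 in 7 of 24 libraries. FPKM are scaled by gene length, so these levels can be set against each other, and the plot of FPKM by library shows them with the spread of each group. A test was run on the 20682 genes with a mean of at least 0.5 FPKM over the 24 libraries, which kept 9 members and left out BBX23. Annotation limits apply: in the RefSeq gene table the gene AT1G06045 overlaps BBX24, AT2G31390 overlaps BBX25 and AT4G39060 touches BBX20, and reads of overlapping genes cannot be told apart unless counting used strand, which the sources do not state. AT1G06045 was listed at 0 in all 24 libraries, AT2G31390 ranged between 43.8 and 86.6 FPKM, and AT4G39060 between 0 and 2.35 FPKM.

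**Figure D1:**
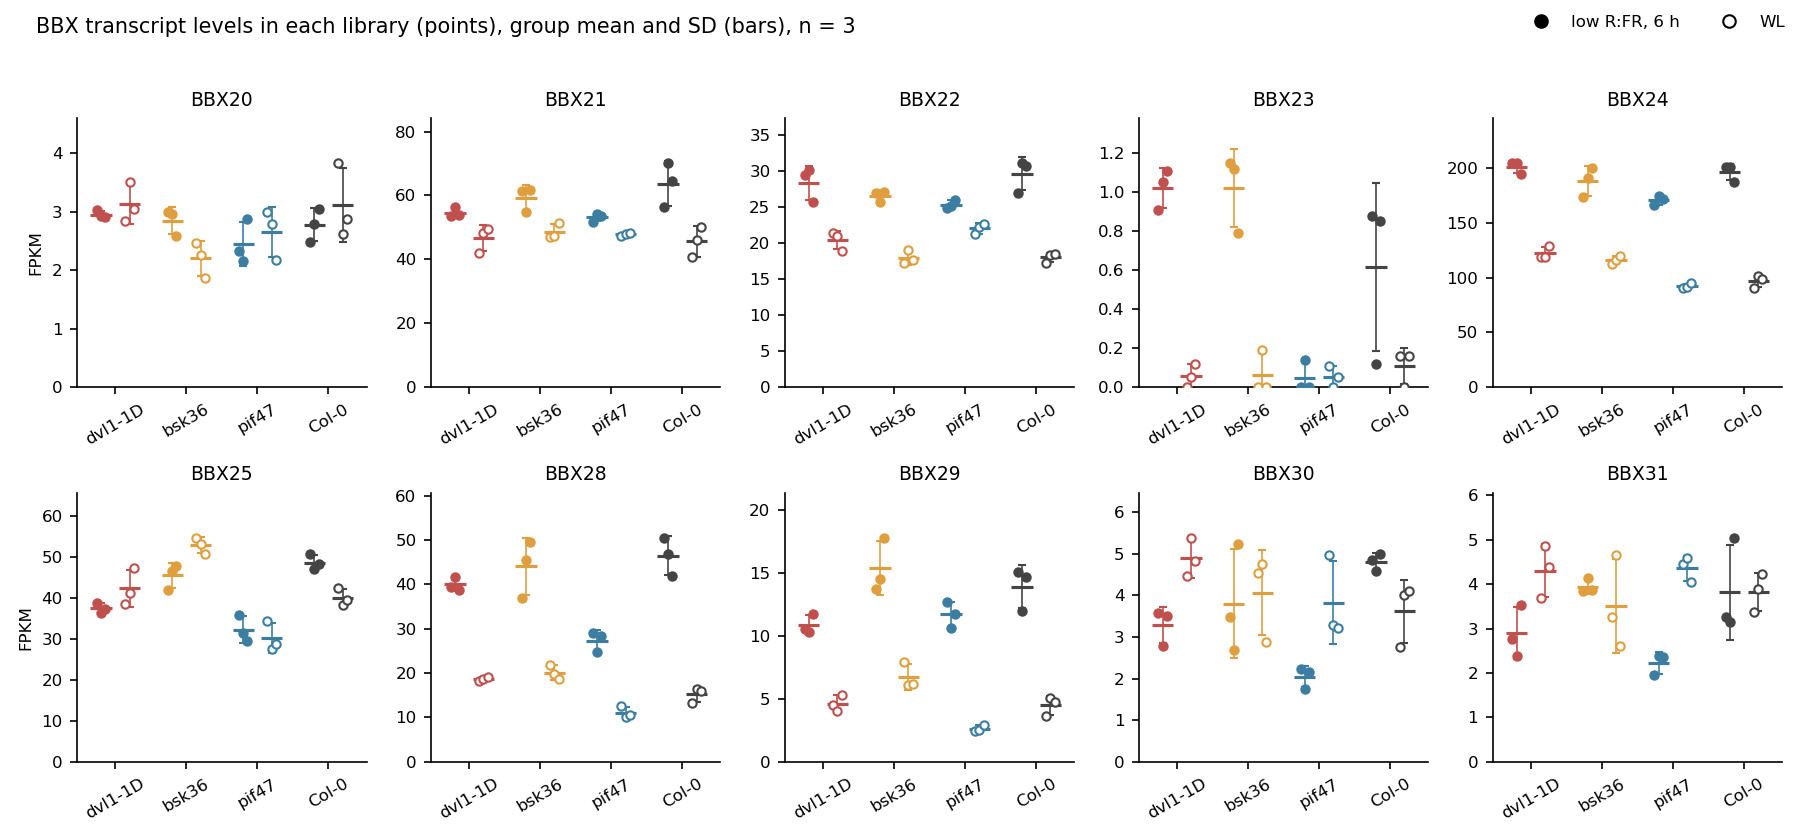
FPKM (y axes, starting at 0) of the 10 BBX genes in each of the 24 libraries, by genotype (x axis), with low R:FR as filled points left of WL as open points; horizontal bars are group means and vertical bars SD (n = 3). BBX28, BBX29 and BBX24 stand higher under low R:FR in all 4 genotypes, whereas BBX23 stands above 0.19 FPKM only under low R:FR and in no pif47 library.

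Under low R:FR, BBX22, BBX24, BBX28 and BBX29 were called higher in every genotype, BBX21 in dvl1-1D, bsk36 and Col-0 and BBX25 in Col-0. BBX31 was called lower in dvl1-1D and pif47 and BBX30 in pif47. A gene was called where its Benjamini-Hochberg adjusted p in limma was under 0.05 over all tested genes, and sizes are log2 fold changes on the log2(FPKM + 0.1) scale with their standard errors, a scale that understates the change of low genes. The calls of BBX22 in pif47 (adjusted p = 0.0476), BBX21 in dvl1-1D (0.0490) and BBX31 in dvl1-1D (0.0452) lay close to this threshold. They were lost in most of the 24 fits that each left out 1 library. Those of BBX25 in Col-0, BBX21 in bsk36 and BBX30 in pif47 were lost in fewer. Of the 9 tested members, 5 were called higher and 1 lower in dvl1-1D, where 10.7% of all tested genes were called higher and 8.35% lower. In bsk36 the counts were 5 higher and 0 lower, against 8.09% and 9.24% of all tested genes, and in pif47 they were 4 higher and 2 lower, against 8.25% and 10.1%. In Col-0, 6 were called higher and 0 lower, against 21.0% and 15.7% of all tested genes. The members' median change was 0.23 in dvl1-1D (0.030 over all tested genes), 0.36 in bsk36 (-0.007 over all tested genes), 0.15 in pif47 (0.026 over all tested genes) and 0.48 in Col-0 (0.057). The study took genes as light-responsive at a log2 fold change of 1 or more in size with an unadjusted p no higher than 0.01. BBX28 and BBX29 passed them in every genotype and BBX24 only in Col-0 among the 4 genotypes, which made 2 of 9 members higher in dvl1-1D, where 1.32% of all tested genes passed upward, and likewise 2 of 9 in bsk36 (1.30%), 2 of 9 in pif47 (0.701%) and 3 of 9 in Col-0 (2.16%). The BBX24 value in Col-0, 1.02, lay close to the cut of 1. It fell below 1 without Col-0 WL replicate 1 and after median-of-ratios scaling.

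**Figure D2:**
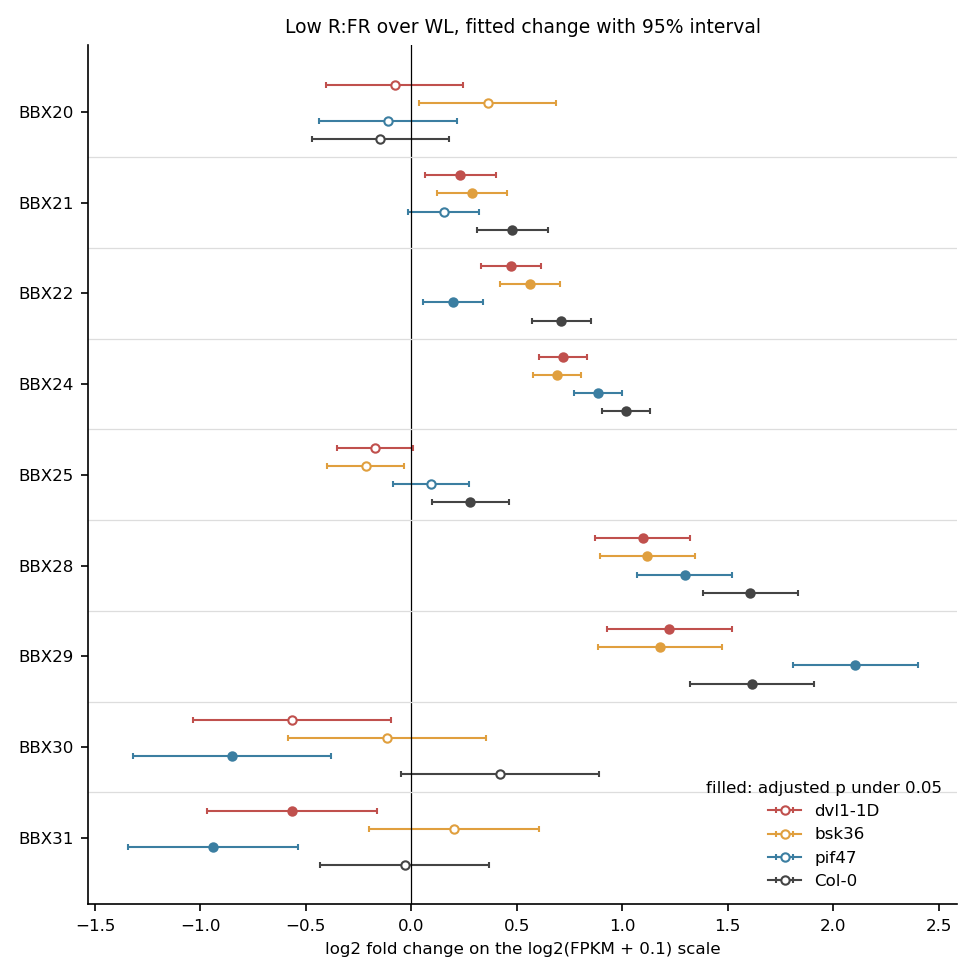
Log2 fold change of low R:FR over WL (x axis, log2(FPKM + 0.1) scale) for the 9 tested BBX genes (rows) in the 4 genotypes, with 95% intervals from limma; filled points have an adjusted p under 0.05. BBX28 and BBX29 lie to the right of 1 in all 4 genotypes, and BBX30 and BBX31 lie to the left of 0 in dvl1-1D and pif47.

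BBX28 and BBX29, which bind HY5, had the largest responses of the 9 tested members in every genotype. BBX28 had 39.5, 41.7 and 38.8 FPKM in dvl1-1D under low R:FR, against 18.1, 18.6 and 19.2 FPKM in WL. The bsk36 libraries gave 37.0, 45.6 and 49.6 FPKM under low R:FR, against 21.8, 19.9 and 18.6 FPKM in WL. In both genotypes every low R:FR library lay above every WL library. BBX28 had 29.0, 24.7 and 28.3 FPKM in pif47 under low R:FR, against 12.6, 10.1 and 10.5 FPKM in WL, and 50.5, 46.9 and 41.9 FPKM in Col-0 under low R:FR, against 13.2, 16.4 and 15.9 FPKM in WL. The groups were again separate in each genotype, and the pif47 libraries were the lowest in both lights. The log2 fold changes of BBX28 were 1.098 ± 0.11, adjusted p = 3.05e-07 in dvl1-1D, 1.12 ± 0.11 (2.71e-07) in bsk36, 1.30 ± 0.11 (7.07e-08) in pif47, and 1.61 ± 0.11 (8.83e-10) in Col-0.

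BBX29 was lower in level than BBX28. It had 10.6, 10.3 and 11.8 FPKM in dvl1-1D under low R:FR, against 4.50, 4.05 and 5.34 FPKM in WL, and 13.8, 14.6 and 17.8 FPKM in bsk36 under low R:FR, against 7.97, 6.11 and 6.18 FPKM in WL. In pif47, BBX29 stood at 12.7, 10.7 and 11.8 FPKM under low R:FR, against 2.44, 2.56 and 2.95 FPKM in WL. The low R:FR level of pif47 lay among those of the other genotypes, while its WL libraries were all below those of the others. Col-0 had 15.1, 11.99 and 14.7 FPKM under low R:FR, against 3.64, 5.11 and 4.77 FPKM in WL. The fold change was widest in pif47, where the mean under low R:FR was 4.42 times that in WL (log2 2.105 ± 0.14, adjusted p = 3.94e-09). The ratio of means was 2.35 in dvl1-1D (log2 1.22 ± 0.14, adjusted p = 2.77e-06), 2.28 in bsk36 (log2 1.18 ± 0.14, adjusted p = 4.76e-06) and 3.09 in Col-0 (log2 1.61 ± 0.14, adjusted p = 3.31e-08). The difference between the pif47 and Col-0 responses, 0.49 ± 0.20, did not pass the test (adjusted p = 0.243, 95% interval 0.07 to 0.91).

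BBX24 and BBX25, which hold back HY5 activity, differed in their light response. BBX24, the abundant member, had 205, 204 and 195 FPKM in dvl1-1D under low R:FR, against 119, 118 and 129 FPKM in WL. It had 173, 191 and 200.1 FPKM in bsk36 under low R:FR, against 112, 116 and 120.0 FPKM in WL. It had 166, 174 and 172 FPKM in pif47 under low R:FR, against 90.6, 91.7 and 94.8 FPKM in WL. No low R:FR library overlapped a WL library of any genotype. Col-0 libraries held 200.4, 201 and 188 FPKM under low R:FR, against 90.7, 101 and 98.7 FPKM in WL, a ratio of means of 2.03 (log2 1.02 ± 0.05, adjusted p = 4.58e-11). The ratio was 1.65 in dvl1-1D (log2 0.72 ± 0.05, adjusted p = 7.59e-09), 1.62 in bsk36 (log2 0.69 ± 0.05, adjusted p = 1.48e-08) and 1.85 in pif47 (log2 0.88 ± 0.05, adjusted p = 1.53e-09).

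BBX25 had 38.7, 36.2 and 37.1 FPKM in dvl1-1D under low R:FR, against 38.4, 41.1 and 47.3 FPKM in WL. In bsk36 it had 41.9, 46.5 and 47.8 FPKM under low R:FR, against 54.6, 53.0 and 50.7 FPKM in WL, with every low R:FR library below every WL library. It had 35.7, 31.4 and 29.4 FPKM in pif47 under low R:FR, against 34.4, 27.5 and 28.6 FPKM in WL, and these overlapped. Col-0 was the reverse of bsk36, with 50.6, 47.0 and 48.1 FPKM under low R:FR, against 42.3, 38.3 and 39.4 FPKM in WL, and no overlap. The rise in Col-0 was called (log2 0.28 ± 0.09, adjusted p = 0.0152), whereas the values in dvl1-1D (-0.17, 0.190), bsk36 (-0.22, 0.0953) and pif47 (0.09, 0.507) did not pass. The Col-0 call was lost when either Col-0 low R:FR replicate 1 or Col-0 WL replicate 2 was left out (adjusted p = 0.0561 for each) and after median-of-ratios scaling.

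Among the promoters of photomorphogenesis, BBX22 was called higher under low R:FR in every genotype and BBX21 in all but pif47, and both had their smallest fitted change in pif47. BBX22 had 29.4, 30.1 and 25.7 FPKM in dvl1-1D under low R:FR, against 21.4, 20.9 and 18.9 FPKM in WL, and 26.9, 25.7 and 27.1 FPKM in bsk36 under low R:FR, against 17.2, 19.1 and 17.6 FPKM in WL. It had 24.8, 25.1 and 26.0 FPKM in pif47 under low R:FR, against 21.2, 22.2 and 22.7 FPKM in WL. It had 26.9, 31.1 and 30.8 FPKM in Col-0 under low R:FR, against 17.3, 18.3 and 18.4 FPKM in WL. Low R:FR and WL libraries were separate in each genotype, and the gap was narrowest in pif47, which had the highest mean in WL. The log2 fold changes of BBX22 were 0.47 ± 0.07 (adjusted p = 3.83e-05) in dvl1-1D, 0.56 ± 0.07 (4.94e-06) in bsk36, 0.20 ± 0.07 (0.0476) in pif47 and 0.71 ± 0.07 (1.06e-07) in Col-0. The pif47 call was lost in 15 of the 24 fits that each left out 1 library, with the highest adjusted p, 0.164, without pif47 WL replicate 1, and also with no filter and with no variance trend.

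BBX21 had 53.5, 56.2 and 54.0 FPKM in dvl1-1D under low R:FR, against 41.9, 48.3 and 49.6 FPKM in WL, and 61.5, 55.0 and 61.6 FPKM in bsk36 under low R:FR, against 47.1, 47.4 and 51.3 FPKM in WL. It had 51.8, 54.2 and 53.6 FPKM in pif47 under low R:FR, against 47.5, 47.8 and 48.1 FPKM in WL, and 56.2, 70.2 and 64.7 FPKM in Col-0 under low R:FR, against 40.6, 46.1 and 50.2 FPKM in WL. The lights did not overlap within any genotype, but the gap between them was small outside Col-0. The change was called in dvl1-1D (log2 0.23 ± 0.08, adjusted p = 0.0490), bsk36 (0.29 ± 0.08, 0.0161) and Col-0 (0.48 ± 0.08, 9.78e-05), and the pif47 value, 0.15 ± 0.08, did not pass (adjusted p = 0.201). The dvl1-1D call was lost in 17 of the 24 fits that left out 1 library (adjusted p up to 0.240, without dvl1-1D WL replicate 1), and the bsk36 call in 4 of 24 (up to 0.0713, without bsk36 low R:FR replicate 3), which were those without bsk36 low R:FR replicate 1 or 3 or bsk36 WL replicate 1 or 2. The dvl1-1D call was also lost with no filter, after rescaling FPKM to a common sum per library, with only the 2 groups compared in the fit and with no variance trend.

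BBX20, which is also tied to brassinosteroid signaling, was low and passed the test of the light effect in no genotype. It had 3.02, 2.92 and 2.90 FPKM in dvl1-1D under low R:FR, against 2.84, 3.50 and 3.05 FPKM in WL, and 2.99, 2.96 and 2.58 FPKM in bsk36 under low R:FR, against 2.47, 2.26 and 1.87 FPKM in WL. In pif47 it had 2.32, 2.15 and 2.87 FPKM under low R:FR, against 3.00, 2.78 and 2.18 FPKM in WL, and in Col-0 2.48, 2.79 and 3.05 FPKM under low R:FR, against 3.83, 2.62 and 2.88 FPKM in WL. The lights overlapped except in bsk36, whose WL mean was the lowest. The largest of its 4 values was 0.36 ± 0.16 in bsk36 (adjusted p = 0.125, 95% interval 0.04 to 0.69), and its unadjusted p there was 0.031.

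BBX23, the weakest member, had its highest values under low R:FR, but not in pif47. It had 0.91, 1.05 and 1.11 FPKM in dvl1-1D under low R:FR, against 0, 0.05 and 0.12 FPKM in WL, and 1.15, 1.12 and 0.79 FPKM in bsk36 under low R:FR, against 0, 0.19 and 0 FPKM in WL. In pif47 it had 0, 0.14 and 0 FPKM under low R:FR, against 0.11, 0 and 0.05 FPKM in WL. In Col-0 it had 0.88, 0.12 and 0.85 FPKM under low R:FR, against 0.16, 0 and 0.16 FPKM in WL. Replicate 2 of Col-0 under low R:FR was as low as the WL libraries, so the Col-0 groups overlapped. The table lists 0 without the read depth behind it, so no exact limit can be set on those values. The lowest BBX23 value above 0 was 0.05 FPKM. BBX23 did not pass the filter of 0.5 FPKM. In a fit of the 26686 genes above 0, its difference of mean log2 values was 2.91 ± 0.56, adjusted p = 0.00116 in dvl1-1D, 2.96 ± 0.56, adjusted p = 0.00106 in bsk36, -0.13 ± 0.56, adjusted p = 0.966 in pif47 and 1.64 ± 0.56, adjusted p = 0.0342 in Col-0. In that fit, 7.87% of genes were called higher in dvl1-1D, 6.10% in bsk36 and 15.8% in Col-0. The size of such a difference at low values is set by the pseudocount, and in Col-0 it was 0.80 with 0.5 and 0.51 with 1 added to each FPKM. Without Col-0 low R:FR replicate 2 it was 2.35 with the pseudocount of 0.1.

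BBX30 and BBX31, the small repressors, were called higher under low R:FR in no genotype and lower in some mutants. BBX30 had 3.57, 2.78 and 3.51 FPKM in dvl1-1D under low R:FR, against 4.47, 5.39 and 4.82 FPKM in WL, and 3.48, 2.68 and 5.24 FPKM in bsk36 under low R:FR, against 4.55, 4.76 and 2.89 FPKM in WL. In pif47 BBX30 had 2.22, 1.76 and 2.16 FPKM under low R:FR, against 4.98, 3.28 and 3.22 FPKM in WL, and in Col-0 4.85, 4.59 and 4.99 FPKM under low R:FR, against 2.75, 4.0 and 4.11 FPKM in WL. Low R:FR libraries lay below WL libraries in dvl1-1D and pif47, above them in Col-0 and among them in bsk36. Of these differences the one in pif47 passed the test (log2 -0.85 ± 0.22, adjusted p = 0.0110), and it was lost in 2 of the 24 fits that left out 1 library, with adjusted p = 0.0820 without pif47 WL replicate 1 and 0.0534 without pif47 low R:FR replicate 2. The values in dvl1-1D (-0.56, 0.0887), bsk36 (-0.12, 0.805) and Col-0 (0.42, 0.154) did not pass.

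BBX31 had 2.76, 2.39 and 3.54 FPKM in dvl1-1D under low R:FR, against 3.68, 4.86 and 4.38 FPKM in WL, and 3.84, 4.13 and 3.87 FPKM in bsk36 under low R:FR, against 3.27, 4.66 and 2.60 FPKM in WL. In pif47 BBX31 had 1.95, 2.38 and 2.35 FPKM under low R:FR, against 4.46, 4.58 and 4.04 FPKM in WL, and in Col-0 3.27, 3.14 and 5.05 FPKM under low R:FR, against 3.38, 3.89 and 4.23 FPKM in WL. In pif47 and in dvl1-1D every low R:FR library lay below every WL library, and the lights overlapped in bsk36 and Col-0. The falls were called in pif47 (log2 -0.94 ± 0.19, adjusted p = 0.00164) and dvl1-1D (-0.57 ± 0.19, 0.0452), while the values in bsk36 (0.20, 0.548) and Col-0 (-0.03, 0.918) did not pass. The dvl1-1D call was lost in 15 of the 24 fits that left out 1 library, with adjusted p up to 0.199 without dvl1-1D low R:FR replicate 2, and also with no filter, with only the 2 groups compared in the fit and with no variance trend.

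Under low R:FR, the mutants were each set against Col-0 to see which BBX levels differed with genotype. In pif47, 7 of 9 tested members were called lower and 0 higher, where 6.57% of all tested genes were called lower and 6.92% higher. In dvl1-1D, 1 was called lower and 0 higher (3.77% and 5.64% of all tested genes), and in bsk36 0 were called in either direction by limma (0.629% lower and 0.812% higher), with 1 member, BBX22, at an unadjusted p under 0.05. The members' median difference was -0.22 in dvl1-1D (0.021 over all tested genes), -0.08 in bsk36 (0.037 over all tested genes) and -0.25 in pif47 (0.042). The comparisons share the Col-0 libraries. How many of all genes show no overlap between such groups of 3 libraries was not counted, here, for the light effect or in WL. Separation of members is therefore given as a description.

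Of the 9 tested members, the repressor BBX30 had the largest fitted difference between pif47 and Col-0 under low R:FR. BBX30 averaged 2.05 ± 0.250 FPKM in pif47 and 4.81 ± 0.203 FPKM in Col-0 under low R:FR (SD, n = 3 each, log2 -1.20 ± 0.22, adjusted p = 0.000982), and every pif47 library was below every Col-0 library. BBX31 averaged 2.23 ± 0.240 FPKM in pif47 and 3.82 ± 1.07 FPKM in Col-0 (log2 -0.72 ± 0.19, adjusted p = 0.0157). That call was lost in 2 of the 24 fits that left out 1 library, with adjusted p = 0.0852 without Col-0 low R:FR replicate 3, the highest of its group, and 0.0681 without pif47 low R:FR replicate 1. BBX28 averaged 27.3 ± 2.30 FPKM in pif47 and 46.4 ± 4.35 FPKM in Col-0 (log2 -0.76 ± 0.11, adjusted p = 5.23e-05), and BBX25 32.2 ± 3.25 FPKM in pif47 and 48.5 ± 1.87 FPKM in Col-0 (log2 -0.60 ± 0.09, adjusted p = 7.28e-05). Every pif47 library was below every Col-0 library for both genes, and the calls of BBX25, BBX28 and BBX30 held in each of the 24 fits that left out 1 library and under each alternative tried. Smaller differences were called for BBX21 (-0.25 ± 0.08, 0.0408), BBX22 (-0.22 ± 0.07, 0.0337) and BBX24 (-0.20 ± 0.05, 0.0173). For these 3 the pif47 libraries all lay below the Col-0 libraries, but the calls were lost in 5, 5 and 3 of the 24 fits that left out 1 library, with adjusted p up to 0.193 and 0.132 without Col-0 low R:FR replicate 2 and 0.0676 without pif47 low R:FR replicate 1. All these fits left out a Col-0 or pif47 library of low R:FR, and with only the 2 groups compared in the fit, the calls of BBX21, BBX22, BBX24 and BBX31 were lost. The BBX21 call was also lost with no filter, after rescaling FPKM to a common sum per library and with no variance trend. BBX29 (-0.24 ± 0.14, 0.286) and BBX20 (-0.18 ± 0.16, 0.503) did not pass.

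BBX23 was at 0, 0.14 and 0 FPKM in pif47 under low R:FR, against 0.88, 0.12 and 0.85 FPKM in Col-0, and the difference of mean log2 values in the fit with no filter was -2.14 ± 0.56, adjusted p = 0.0185, where 4.79% of genes were called lower. Without Col-0 low R:FR replicate 2, the low one, it was -2.85. The dvl1-1D libraries, at 0.91, 1.05 and 1.11 FPKM, lay above all 3 of Col-0, but that difference did not pass (0.93 ± 0.56, adjusted p = 0.371). In dvl1-1D the call was BBX25, at 37.4 ± 1.28 FPKM in dvl1-1D and 48.5 ± 1.87 FPKM in Col-0 (log2 -0.38 ± 0.09, adjusted p = 0.00916), without overlap. BBX28, BBX29 and BBX30 were also below Col-0 in every dvl1-1D library under low R:FR but did not pass, with log2 values of -0.21 (0.231), -0.35 (0.130) and -0.54 (0.136). In bsk36 under low R:FR the 9 fitted differences lay between -0.38 (BBX30) and 0.14 (BBX29), with 95% intervals of -0.18 to 0.05 for BBX24 and -0.85 to 0.08 for BBX30. A seed storage transcript moved with the pif47 low R:FR group. The 5 seed storage markers summed to 2.08 to 4.94 FPKM in pif47 under low R:FR and 0 to 0.38 FPKM in Col-0 under low R:FR. Of these 5 genes CRA1 alone passed the filter, and only through the pif47 low R:FR libraries. Its mean was 3.45 FPKM there, against at most 0.513 FPKM in any other group, so no test of it is given. The 7 root markers summed to 69.8 to 103 FPKM in pif47 and 53.2 to 86.4 FPKM in Col-0 under low R:FR. Of the 3 shoot markers, 2 were called lower in pif47 than in Col-0 under low R:FR (LHCB1.1 -0.36 ± 0.10, 0.0254, and LHCB2.1 -0.30 ± 0.09, 0.0318), and the 3 summed to 17553 to 18579 FPKM in pif47 and 17207 to 20659 FPKM in Col-0. The part of these markers in the BBX differences was not tested.

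**Figure D3:**
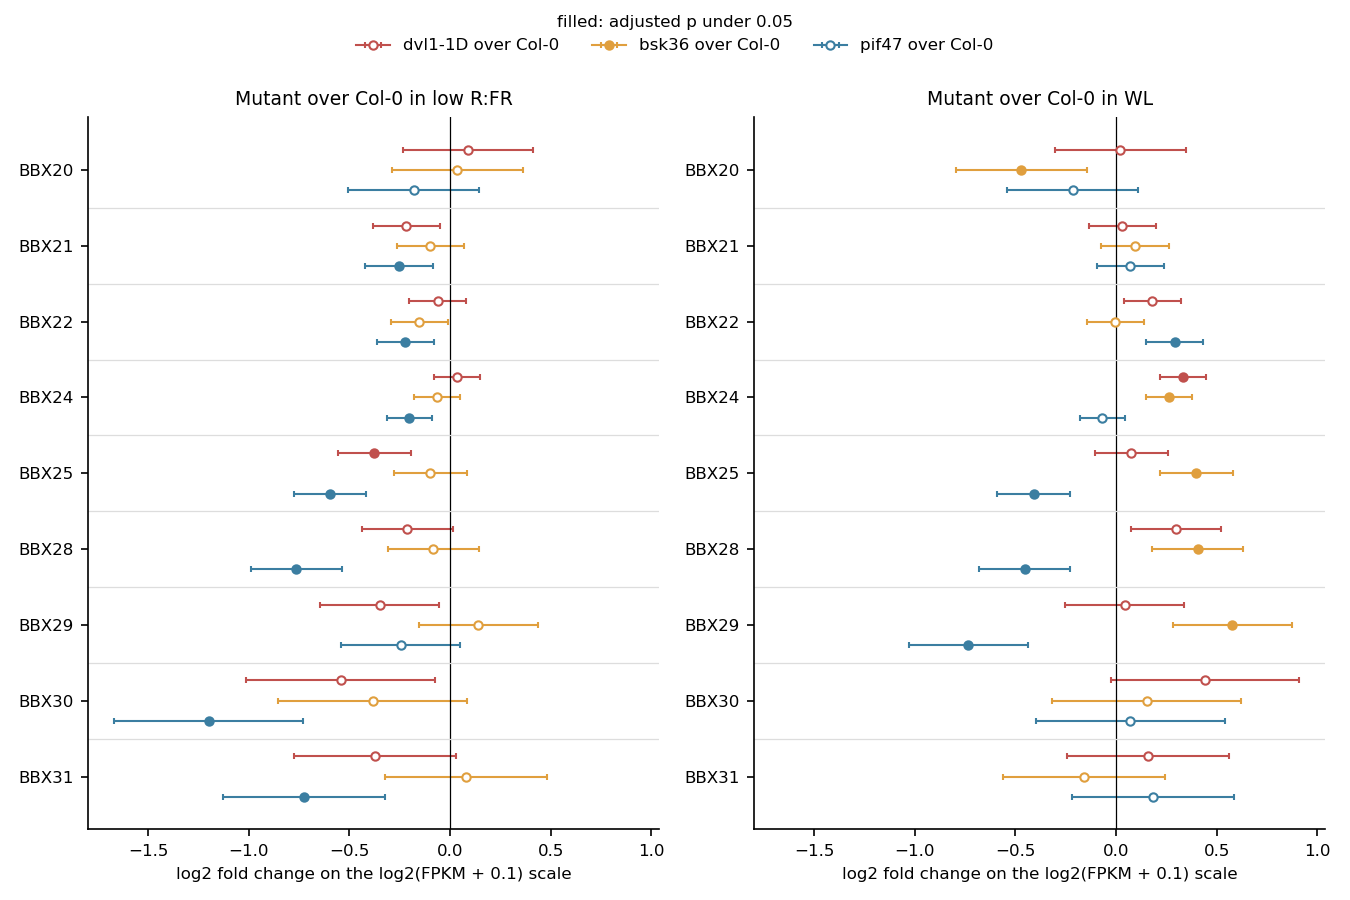
Log2 fold change of each mutant over Col-0 (x axes, log2(FPKM + 0.1) scale) for the 9 tested BBX genes (rows), under low R:FR (left) and in WL (right), with 95% intervals from limma; filled points have an adjusted p under 0.05. Under low R:FR the filled points are 7 for pif47 and 1 for dvl1-1D, all left of 0; in WL the bsk36 points of BBX24, BBX25, BBX28 and BBX29 are filled and right of 0.

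In WL the mutants differed from Col-0 in other ways. In bsk36, 4 of 9 tested members were called higher and 1 lower, where 13.7% of all tested genes were called higher and 4.91% lower. In pif47, 1 was called higher and 3 lower (2.48% and 1.17% of all tested genes), and in dvl1-1D the 1 call was higher (4.63% called in either direction). The members' median difference was 0.16 in dvl1-1D (0.028 over all tested genes), 0.15 in bsk36 (0.079 over all tested genes) and -0.07 in pif47 (0.056).

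BBX24, BBX25, BBX28 and BBX29 were higher in bsk36 than in Col-0 in WL, and BBX20 was lower. BBX29 averaged 6.75 ± 1.05 FPKM in bsk36 and 4.51 ± 0.770 FPKM in Col-0 (log2 0.58 ± 0.14, adjusted p = 0.00835), and BBX28 20.1 ± 1.62 FPKM in bsk36 and 15.2 ± 1.73 FPKM in Col-0 (log2 0.41 ± 0.11, adjusted p = 0.0134). BBX25 averaged 52.7 ± 1.98 FPKM in bsk36 and 40.0 ± 2.09 FPKM in Col-0 (log2 0.40 ± 0.09, adjusted p = 0.00410), and BBX24 116 ± 3.81 FPKM in bsk36 and 96.9 ± 5.47 FPKM in Col-0 (log2 0.26 ± 0.05, adjusted p = 0.00315). For all 4 genes every bsk36 WL library lay above every Col-0 WL library, a separation whose share over all genes was not counted. BBX20 was lower, at 2.20 ± 0.304 FPKM in bsk36 and 3.11 ± 0.637 FPKM in Col-0 (log2 -0.47 ± 0.16, adjusted p = 0.0404). Leaving out Col-0 WL replicate 1 changed these counts. Without it the calls of BBX20 (adjusted p = 0.232), BBX28 (0.0958) and BBX29 (0.0684) were lost, and over all genes 1722 were called without it and 3851 with it. The BBX28 call was also lost without bsk36 WL replicate 1, and that of BBX20 without Col-0 WL replicate 3 or bsk36 WL replicate 2 or 3. Median-of-ratios scaling also ended the BBX28 call, and a fit with no filter that of BBX20. Clock genes moved with the same comparison, with 6 of 10 called higher and 2 lower in bsk36 in WL (PRR9 0.95 ± 0.15, adjusted p = 0.000487, and ELF4 -0.72 ± 0.08, 2e-05), and 2 of the 3 shoot markers were called higher (LHCB1.1 0.34 ± 0.10 and LHCB2.1 0.49 ± 0.09) and 1 lower (RBCS1A -0.27 ± 0.08). The part of these genes in the BBX values was not tested.

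In pif47 in WL, BBX29 averaged 2.65 ± 0.267 FPKM, against 4.51 ± 0.770 FPKM in Col-0 (log2 -0.73 ± 0.14, adjusted p = 0.00621). BBX28 averaged 11.1 ± 1.34 FPKM in pif47 and 15.2 ± 1.73 FPKM in Col-0 (log2 -0.45 ± 0.11, adjusted p = 0.0242), and BBX25 30.2 ± 3.70 FPKM in pif47 and 40.0 ± 2.09 FPKM in Col-0 (log2 -0.41 ± 0.09, adjusted p = 0.0122). These 3 were lower in every pif47 library than in any Col-0 library in WL, again with no share over all genes counted. BBX22 was the one called higher, at 22.1 ± 0.746 FPKM in pif47 and 18.0 ± 0.623 FPKM in Col-0 (log2 0.29 ± 0.07, adjusted p = 0.0222), also without overlap. Fits that left out 1 library lost the BBX22 call 3 times of 24 (adjusted p up to 0.0938, without pif47 WL replicate 3), and those of BBX25 and BBX28 3 and 4 times (up to 0.0715 and 0.105, both without pif47 WL replicate 2), each time without a pif47 or Col-0 WL library. In dvl1-1D in WL the call was BBX24, at 122 ± 6.12 FPKM in dvl1-1D and 96.9 ± 5.47 FPKM in Col-0 (log2 0.33 ± 0.05, adjusted p = 0.00108), and it stayed called in all 24 of those fits. Markers moved with the pif47 comparison in WL too. Of the 3 shoot markers, 2 were called lower (LHCB1.1 -0.64 ± 0.10 and LHCB2.1 -0.59 ± 0.09). Their 3-gene sum was 17805 to 20330.2 FPKM in pif47 and 20778 to 23399.9 FPKM in Col-0. CRA1, which passed the filter only through the pif47 low R:FR libraries, averaged 0.513 FPKM in pif47 and 0.02 FPKM in Col-0 in WL. Over the 5 seed storage markers the sum was 0.26 to 0.89 FPKM in pif47 and 0.07 to 0.45 FPKM in Col-0, and the part of these markers in the BBX values was not tested. When only the 2 groups compared entered the fit, BBX20 in bsk36 and BBX22, BBX25, BBX28 and BBX29 in pif47 lost their calls, as did BBX24 in dvl1-1D and BBX24, BBX28 and BBX29 in bsk36, and BBX25 in bsk36 kept its call.

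The interaction terms tested whether the low R:FR response of a member differed between a mutant and Col-0. For dvl1-1D, 1 of 9 tested members was called, where 2.34% of all tested genes were, for bsk36 2 of 9 (3.03%) and for pif47 2 of 9 (2.44%). All of these called terms were negative, a smaller or more negative response in the mutant. BBX24 had a smaller response in dvl1-1D (interaction -0.30 ± 0.08, adjusted p = 0.0466) and in bsk36 (-0.33 ± 0.08, 0.0262), where its WL level was above that of Col-0 and its low R:FR level overlapped that of Col-0. BBX25 had a term of -0.50 ± 0.12 in bsk36 (adjusted p = 0.0321). Its light effect was 0.28 in Col-0 and -0.22 in bsk36, and the bsk36 value did not pass on its own (adjusted p = 0.0953). The BBX25 term in dvl1-1D, -0.45 ± 0.12, missed the threshold (0.0550). In pif47, BBX22 responded less (-0.51 ± 0.10, 0.00474) and BBX30 fell, against a value of 0.42 in Col-0 (-1.27 ± 0.32, 0.0353). The BBX22 term stayed called in each of the 24 fits that left out 1 library and under each alternative tried. The others did not. The term of BBX24 in dvl1-1D was lost in 18 of the 24 fits that left out 1 library (adjusted p up to 0.128, without Col-0 WL replicate 1), and BBX24 in bsk36 in 5 (up to 0.0812, without the same library). BBX25 in bsk36 was lost in 7 of them (up to 0.0856, without bsk36 low R:FR replicate 1) and BBX30 in pif47 in 8 (up to 0.106, without Col-0 WL replicate 1). Median-of-ratios scaling ended each of these 4 calls, as did a fit of only the groups compared, except for BBX25. BBX28, whose fold change was smaller in each mutant than in Col-0, did not pass, with terms of -0.51 ± 0.15 (adjusted p = 0.0778) in dvl1-1D, -0.49 ± 0.15 (0.0824) in bsk36 and, for pif47, -0.31 ± 0.15 (0.352). BBX31 had a term of -0.91 ± 0.27 in pif47 (adjusted p = 0.0873, 95% interval -1.48 to -0.34), and BBX21 one of -0.33 ± 0.11 (0.159). For BBX23 the term in pif47 was -1.77 ± 0.79, adjusted p = 0.348 in the fit with no filter, which did not pass.

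Across the 24 libraries the members fell into a set that moved together and others that did not, given here as a description since the libraries share genotypes and lights. BBX24 and BBX28 were most alike of all member pairs, with Pearson r of 0.96 between their log2(FPKM + 0.1) values over 24 libraries, followed by BBX28 and BBX29 (0.95) and BBX24 and BBX29 (0.93). BBX22 and BBX21 joined them less closely (r between 0.68 and 0.85 with the 3). BBX30 and BBX31 were alike (0.71), while BBX31 ran against BBX24 (-0.42) and BBX29 (-0.41), and BBX20 had no r larger in size than that with BBX31 (0.35). Among all tested genes, the one most like BBX28 was FLP1 (AT4G31380, r = 0.99), for BBX24 LNK1 (AT5G64170, 0.98), for BBX29 PIF5 (AT3G59060, 0.97) and for BBX22 the clock gene TOC1 (AT5G61380, 0.94). BBX21 was most like AT2G46780 (0.93), BBX25 like AT5G35970 (0.90), BBX30 like AT1G66130 (0.80), BBX20 like AT2G44310 (0.78) and BBX31 like BBX30 itself (0.71). Each of these r is the highest over all tested genes and carries no test.

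**Figure D4:**
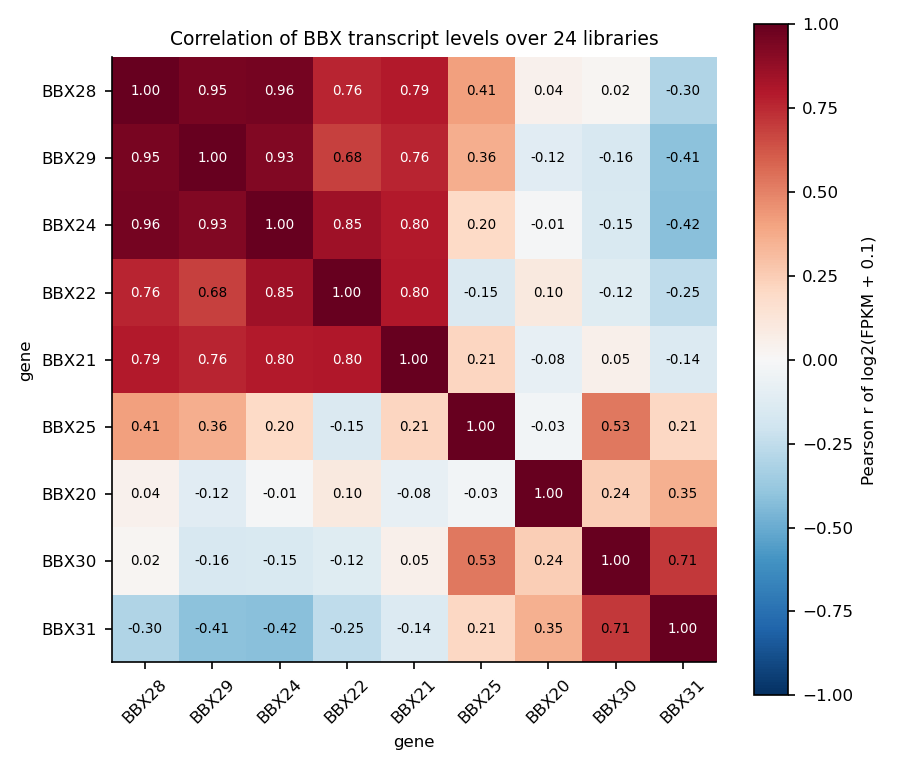
Pearson r of log2(FPKM + 0.1) over the 24 libraries for each pair of the 9 tested BBX genes (both axes), from -1 to 1. BBX28, BBX29 and BBX24 form the block of highest values, 0.93 to 0.96, and BBX30 and BBX31 share an r of 0.71.

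The genes of HY5, its homologue HYH and the COP1/SPA ligase were followed as partners of the BBX proteins. HY5, the factor that several members bind, had 21.2 to 23.2 FPKM in dvl1-1D under low R:FR, against 16.4 to 17.5 FPKM in WL, and 19.1 to 22.9 FPKM in bsk36 under low R:FR, against 12.5 to 16.4 FPKM in WL. It had 14.7 to 17.0 FPKM in pif47 under low R:FR, against 12.6 to 14.99 FPKM in WL, and 22.2 to 26.7 FPKM in Col-0 under low R:FR, against 11.99 to 15.1 FPKM in WL. HY5 rose under low R:FR in dvl1-1D (0.36 ± 0.10, adjusted p = 0.0192), bsk36 (0.51 ± 0.10, 0.00145) and Col-0 (0.87 ± 0.10, 1.78e-06), the pif47 value (0.21 ± 0.10, 0.171) did not pass, and the pif47 response was smaller than that of Col-0 (HY5 interaction -0.66 ± 0.15, 0.016). Like BBX28 and BBX25, HY5 was lower in pif47 than in Col-0 under low R:FR (-0.64 ± 0.10, 0.000255), and so was HYH (-0.72 ± 0.10, 6.09e-05), which was also lower in dvl1-1D there (-0.47 ± 0.10, 0.00657). HYH fell under low R:FR in dvl1-1D (-0.39 ± 0.10, 0.0109) and pif47 (-0.34 ± 0.10, 0.024), and its values in bsk36 (-0.09 ± 0.10, 0.621) and Col-0 (0.15 ± 0.10, 0.282) did not pass. Of the 5 COP1 and SPA genes, 1 was called higher under low R:FR in each mutant and 2 in Col-0, with medians of 0.04, 0.03, 0.07 and 0.09 on the log2 scale. Over all tested genes 10.7% were called higher in dvl1-1D, 8.09% in bsk36, 8.25% in pif47 and 21.0% in Col-0. In bsk36 against Col-0 in WL, where BBX24, BBX25, BBX28 and BBX29 were higher, 4 of these 5 were also called higher (COP1 0.22 ± 0.07, SPA1 0.26 ± 0.06, SPA2 0.24 ± 0.07 and SPA3 0.33 ± 0.09), against 13.7% of all tested genes. The median of the 5 was 0.24, against 0.079 over all tested genes, and their part in the BBX values was not tested.

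Flavonoid genes that HY5 and BBX proteins are known to activate were listed as targets, and 5 of the 6 passed the filter. Under low R:FR, 4 of 5 were called higher in dvl1-1D, 3 in bsk36, 0 in pif47 and 3 in Col-0, and 0 were lower by limma in any of them. Over all tested genes the shares called higher were 10.7%, 8.09%, 8.25% and 21.0% in that order. CHS, chalcone synthase, had light effects of 1.08 ± 0.16 (adjusted p = 6.99e-05) in dvl1-1D, 1.07 ± 0.16 (8.55e-05) in bsk36, -0.26 ± 0.16 (0.295) in pif47 and 1.04 ± 0.16 (5.05e-05) in Col-0. In pif47 against Col-0 under low R:FR, 4 of 5 were called lower (CHS -1.37 ± 0.16, CHI -0.92 ± 0.11, F3H -0.60 ± 0.15 and FLS1 -0.72 ± 0.18), against 6.57% of all tested genes. Their median was -0.72, against 0.042 over all tested genes. The interaction of CHS in pif47 was -1.30 ± 0.23 (0.00304) and that of CHI -0.74 ± 0.16 (0.0128).

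Circadian clock genes also moved with the light comparison, and the genes nearest to BBX22 and BBX24 included the clock gene TOC1 and the clock-linked LNK1. Other genes were nearly as close. For BBX24, the low R:FR marker HFR1 had an r of 0.977 and BBX6/COL5 one of 0.976, against 0.980 for LNK1. For BBX22, AT4G30410 and AT2G28840 each had an r of 0.939, against 0.940 for TOC1. Of the 10 clock genes listed, 7 were called higher and 2 lower under low R:FR in bsk36 as in dvl1-1D, 7 higher and 1 lower in pif47, and 8 higher and 0 lower in Col-0. Over all tested genes 10.7% were called higher in dvl1-1D, 8.09% in bsk36, 8.25% in pif47 and 21.0% in Col-0. The shares called lower were 8.35%, 9.24%, 10.1% and 15.7% in the same order. GI changed by 1.75 ± 0.11 in dvl1-1D, 1.995 ± 0.11 in bsk36, 1.64 ± 0.11 in pif47 and 2.08 ± 0.11 in Col-0, and TOC1 by 0.37 ± 0.06, 0.48 ± 0.06, 0.30 ± 0.06 and 0.61 ± 0.06 in the same order. The time of day of each harvest is not given in the sources used here, and the part of the clock in the BBX values was not tested.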

How the data were processed

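Seedlings were sampled as whole plants and poly(A) RNA libraries were sequenced. FPKM values per gene were made by the authors before deposit; the submitters' processing notes name fastp, cutadapt, HISAT2, DESeq2 and the TAIR10 build, and how reads were counted, or whether by strand, is not given in the sources used here. The table's 8 columns of authors' group means were not used. Read totals are unknown, so no counting interval can be given. Members and gene lists were chosen with earlier results of these data known. Values were transformed to log2(FPKM + 0.1), and the 20682 genes with a mean of at least 0.5 FPKM were fitted with limma 3.58.1 (R 4.3.3, eBayes with trend) in 1 model of 8 groups, with 13 contrasts and Benjamini-Hochberg adjustment over all tested genes. The authors' counts were not at hand, so their count-based test could not be run. All 10 members are described, and for each tested member the gene with the highest Pearson r is named. BBX28 and BBX29 were named from the RefSeq gene table (TAIR10.1), which matched 32548 of 32833 codes. The script was tested on simulated data. Alternatives covered the pseudocount, the filter, scaling, the libraries in the fit, a replicate block, the variance trend and leaving out each library.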

Additional observations from a re-analysis of the deposited data

Results flagged for a closer look

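In the main fit, tests of the difference itself placed 5 member responses apart from that of Col-0. The low R:FR response of BBX24 was smaller in dvl1-1D by an interaction of -0.30 and in bsk36 by -0.33 on the log2 scale. The interaction of BBX25 in bsk36 was -0.50, with every low R:FR library below the WL libraries in bsk36 and above them in Col-0. In pif47 the interaction of BBX22 was -0.51, and that of BBX30 was -1.27, with all 3 low R:FR values of BBX30 below the 3 WL values in pif47. Only the BBX22 term stayed called under each alternative and in each fit without 1 library. The other calls were each lost after median-of-ratios scaling and in several fits without 1 library. No explanation for these differences was tested, and each rests on the same Col-0 libraries.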

How the results depend on the processing

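Of the 117 member results tested, 46 were called, and 23 of these held under each alternative and in each fit without 1 library, while 23 were lost in at least 1 of them and 6 results not called were gained in at least 1. No direction of a called value was reversed. The member counts moved most when only the libraries of the groups compared entered the fit, which has fewer samples to estimate the spread. The count was then 3, against 7, for pif47 against Col-0 under low R:FR; in WL it was 0, against 1, for dvl1-1D, 1, against 5, in bsk36, and 0, against 4, for pif47; and for the interactions it was 0, against 1, for dvl1-1D and 1, against 2, for each of bsk36 and pif47. Median-of-ratios scaling gave 2, against 1, for dvl1-1D against Col-0 under low R:FR, and interaction counts of 0 for dvl1-1D and bsk36 and 1 for pif47. The interaction count of dvl1-1D was 0 with no filter or no variance trend and 2 with a minimum mean of 5 FPKM or FPKM rescaled to a common sum per library, that of bsk36 was 1 with no trend, and that of pif47 was 1 with no filter or the minimum of 5. Without 1 library, the counts ranged from 1 to 2 (dvl1-1D) and 3 to 7 (pif47) under low R:FR, from 2 to 5 (bsk36) and 1 to 4 (pif47) in WL, and from 0 to 3 (dvl1-1D), 0 to 3 (bsk36) and 1 to 2 (pif47) for the interactions. The cause of these moves in the counts was not tested. Of the differences of BBX23, 12 moved by more than the spread between replicates under another setting.

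Same-numbered libraries shared little of their deviation from group means, with correlations between -0.143 and 0.087. Such low values cannot exclude a pairing by replicate number, since noise in single libraries lowers them. With a replicate block the interaction count of pif47 was 1, with BBX30 lost at an adjusted p of 0.05001, and the block ended no other member call.

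Over all tested genes, fits of only the groups compared called 4551 genes for light in Col-0 (7600 in the full model) and 2115 (3584) in bsk36; 308 (1945), 26 (298) and 1145 (2790) for dvl1-1D, bsk36 and pif47 under low R:FR; 235 (957), 655 (3851) and 77 (754) in WL; and 64 (484), 87 (627) and 260 (505) for the interactions. The dvl1-1D interaction gave 322 with no filter and 271 with no trend. At the study's thresholds a pseudocount of 1 gave 242 (366) light-responsive genes in dvl1-1D, 254 (413) for bsk36, 137 (226) for pif47 and 446 (719) for Col-0, and the minimum of 5 FPKM gave 186, 196, 117 and 374. Without 1 library the counts under low R:FR ranged from 930 to 2307 (dvl1-1D), 121 to 567 (bsk36) and 1687 to 2977 (pif47), in WL from 431 to 1099, 1722 to 3982 and 297 to 819, and for the interactions from 127 to 1056, 234 to 949 and 347 to 711. The libraries that moved most of these counts were Col-0 low R:FR replicate 2, without which 930 (dvl1-1D) and 121 (bsk36) were called under low R:FR, and Col-0 WL replicate 1, without which 583 (dvl1-1D), 1722 (bsk36) and 346 (pif47) were called in WL. Col-0 low R:FR replicate 2 also had the lowest fitted depth of the 24 libraries (0.81), and the part of depth in these counts was not tested. Scaling moved the split of higher against lower calls: rescaling gave 250 and 117 for bsk36 under low R:FR (168 and 130 as deposited), 3897 and 756 for bsk36 in WL (2835 and 1016), 878 and 222 for pif47 in WL (512 and 242) and 165 and 323 for the dvl1-1D interaction (223 and 261). Median-of-ratios scaling gave 121 and 178 for bsk36 under low R:FR, 473 and 657 for dvl1-1D in WL (543 and 414), 1565 and 1889 for bsk36 and 252 and 328 for pif47 in WL, and 388 and 262 (266 and 361) and 197 and 262 (157 and 348) for the bsk36 and pif47 interactions. BBX23 lies near the lowest values the table resolves.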

Other observations

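Of the 22 other BBX genes, most of which carry a CCT domain as CONSTANS does, 19 passed the filter. Under low R:FR, 7 were called higher and 2 lower in dvl1-1D, against 10.7% and 8.35% of all tested genes. In bsk36 as in pif47, 5 were higher and 2 lower, against 8.09% and 9.24% in bsk36 and 8.25% and 10.1% in pif47. Col-0 had 6 higher and 1 lower, against 21.0% and 15.7%. BBX6/COL5 was called higher in every genotype, by 1.93 ± 0.09 in dvl1-1D, 1.64 ± 0.09 for bsk36, 1.87 ± 0.09 in pif47 and 2.33 ± 0.09 in Col-0 (log2 fold change, limma, highest adjusted p = 8.8e-11). BBX17/COL8 rose by 1.92 ± 0.17 in dvl1-1D, 1.12 ± 0.17 for bsk36 and 0.58 ± 0.17 in pif47, and its value of 0.32 ± 0.17 in Col-0 did not pass (adjusted p = 0.139). BBX2/COL1 and BBX3/COL2 were lower than Col-0 under low R:FR in dvl1-1D (-0.78 ± 0.10 and -0.78 ± 0.10) and in pif47 (-0.55 ± 0.10 and -0.63 ± 0.10), in comparisons that share the Col-0 libraries. BBX32, which represses BBX21 and HY5 action, was lower in pif47 under low R:FR (-0.93 ± 0.17, adjusted p = 0.000650). Of the 19, 7 were called lower and 1 higher there, against 6.57% and 6.92% of all tested genes. These genes were picked out after their values were seen.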
